A study of Mus musculus with 2 samples.

Results

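The 10 genes of the MHC class I presentation pathway described here were chosen by name, and 10 of 10 were found among the 14654 genes of the deposited count table. They are the heavy chains H2-K1 and H2-D1, the light chain B2m, the transporter subunits Tap1 and Tap2, tapasin (Tapbp), the immune proteasome subunits Psmb8, Psmb9 and Psmb10, and Nlrc5, a transactivator of class I genes. MHC class I molecules display peptides from inside the cell to CD8 T cells, which kill cells that display foreign or mutated peptides. The proteasome cuts proteins into peptides, the TAP transporter carries these into the endoplasmic reticulum, tapasin helps to load them, and a heavy chain bound to β2-microglobulin takes the loaded peptide to the cell surface. Interferon γ is known to raise nearly every step of this pathway, and loss of the pathway is a known way for melanoma cells to escape T cells.

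Tumors of YUMMER1.7, a mouse melanoma line with a high mutation burden, were taken 11 days after injection under the skin. The hosts were C57BL/6 males, 8 weeks old. They were wild type (WT) or Siah2-/-, without the ubiquitin ligase Siah2, while the injected tumor line was the same in both. Sorted leukocytes (CD45-positive) were mixed with fewer sorted CD45-negative cells, and 1 library of 3′ tags was made for each genotype from the tumors of its group. Genotype, tumor pool, suspension and library therefore cannot be told apart, no comparison has a replicate, and every interval below is a 95% interval of counting error only. The cells analysed were 4512 of WT and 5563 labelled Siah2-/-, with a median of 11434.5 and 8699 unique molecular identifiers (UMIs, counted transcripts) per cell. Of these barcodes, 34 occurred in both libraries. Siah2 itself was counted in both, at 660 UMIs (WT) and 505 UMIs (labelled Siah2-/-). As the sources used here do not say which part of the gene was deleted, these 3′ tags do not check the label.

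Cells were placed in 10 classes by marker genes that include none of the 10 members. CD45-negative cells had under 15 leukocyte-list UMIs per 10000 and at least 20 UMIs of a fibroblast list, and were divided by Hmga2, a chromatin gene high in many tumor cells, and by Dcn, Lum and Pdgfra, which mark fibroblasts. The Hmga2-high class held 315 WT cells and 54 cells labelled Siah2-/-, and the Dcn-high class held 126 and 32. Postn, a matrix gene that did not divide them, had 59.2 and 134 CPM (transcript counts per 1000000 of the class total, WT and then labelled Siah2-/-) in Hmga2-high cells and 352 and 329 CPM in Dcn-high cells. The name tumor-like was not borne out by melanocyte genes. Of these, Mlana and Tyrp1 were at 0 UMIs in both classes and both libraries, and Pmel had at most 3 UMIs and Dct at most 2 UMIs. The Hmga2-high cells carried the collagen Col1a2 at 1175 and 1629 CPM. As Col1a2 and Postn are in the fibroblast list, the gate itself asked for such genes, and cells poor in them could enter neither class. The classes are therefore called by the genes that divide them. The 8 immune classes were macrophages (1652 WT and 1378 labelled Siah2-/-), monocyte-like cells (267 and 761), immature dendritic cells (DC, 58 and 67), mature DC (37 and 69), CD8 T (477 and 874), CD4 T (29 and 280), Treg (64 and 82) and NK cells (368 and 577).

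Of the 10 genes, 7 lie together in the major histocompatibility region, between positions 33915899 and 35267499 of chromosome 17 in GRCm38. H2-K1 (ENSMUSG00000061232, minus strand) occupies chr17:33996017-34000347 and H2-D1 (ENSMUSG00000073411, plus strand) chr17:35262730-35267499. Psmb9, Tap1, Psmb8 and Tap2 follow each other between positions 34181987 and 34216321. Tap1 and Psmb9 start head to head and overlap at their 5′ ends on opposite strands. B2m lies on chromosome 2, at chr2:122147686-122153083, and Psmb10 and Nlrc5 lie on chromosome 8. Because H2-K1 and H2-D1 are paralogs, the last 400 bases of the longest coding transcript of each member were searched in the transcripts of all other genes. None of 311 windows of 90 bases was shared with another gene for any of the 10 members. Tapbp overlaps Zbtb22 on the same strand, and reads placed in both genes could be lost from the count.

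The sequences just upstream of the transcription starts of the heavy chains and of B2m are shown because they carry, close together, the short motifs through which class I promoters are known to be driven. Upstream windows of 250 bases (RefSeq, GRCm38.p6) were found for 8 of the 10 members, and they are printed 5′ to 3′ along the gene. Capitals mark an NF-κB-type motif (GGGATTCCC or GGAAAGTCC), an interferon-regulatory-factor-type motif (GAANNGAAA or GAAANNGAA, on either strand) and TGACG with ATTGG after 20 further bases. The last of these is the spacing of the X2 and Y boxes of the SXY module, on which Nlrc5 is known to act. The windows are H2-K1 at chr17:34000348-34000597 (minus strand), H2-D1 at chr17:35262844-35263093 (plus strand) and B2m at chr2:122147437-122147686 (plus strand). The RefSeq start of H2-D1 lies inside the gene span given above, which is that of GENCODE.
H2-K1: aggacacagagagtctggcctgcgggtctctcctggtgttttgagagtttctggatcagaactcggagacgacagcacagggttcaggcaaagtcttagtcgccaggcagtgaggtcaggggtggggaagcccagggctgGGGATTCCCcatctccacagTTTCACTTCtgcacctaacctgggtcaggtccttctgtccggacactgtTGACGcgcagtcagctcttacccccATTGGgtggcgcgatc
H2-D1: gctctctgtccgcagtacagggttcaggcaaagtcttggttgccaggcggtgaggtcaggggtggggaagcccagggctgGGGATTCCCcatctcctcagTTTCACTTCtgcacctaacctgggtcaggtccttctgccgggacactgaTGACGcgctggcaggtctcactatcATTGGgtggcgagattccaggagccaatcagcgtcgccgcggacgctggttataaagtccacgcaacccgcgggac
B2m: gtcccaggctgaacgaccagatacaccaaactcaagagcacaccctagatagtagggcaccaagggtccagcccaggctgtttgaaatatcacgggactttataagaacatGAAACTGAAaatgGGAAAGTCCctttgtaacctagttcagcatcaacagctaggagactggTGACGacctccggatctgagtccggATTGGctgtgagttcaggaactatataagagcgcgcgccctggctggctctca
All motifs were searched on both strands in the upstream windows of 32851 promoters. TGACG with ATTGG after 20 bases was present in all 3 of these windows and in 0.0913% of all promoters, the class I-like gene H2-M3 among them. GAANNGAAA was present in 6.31% of all promoters, GAAANNGAA in 7.13%, GGGATTCCC in 0.301% and GGAAAGTCC in 0.283%. H2-K1 and H2-D1 each held GGGATTCCC and GAANNGAAA, and their windows were identical at 166 of 190 aligned bases (87.4%). B2m held GGAAAGTCC and GAAANNGAA. In the order of the gene, the NF-κB-type motif of H2-K1 began 110 bases before the start, the interferon-type motif 90 bases and TGACG 41 bases. RefSeq holds a further start of H2-K1, from which these motifs began 124, 104 and 55 bases upstream. In B2m the interferon-type motif came first, 139 bases before the start, then the NF-κB-type motif at 126 bases and TGACG at 78 bases. The windows of Tap1, Tapbp, Psmb8, Psmb9 and Psmb10 held none of these 5 motifs, which says only that these letters are not in them. Tap1 and Psmb9 share 225 bases of their windows.

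In Hmga2-high cells, each of the 10 genes had a higher level in the library labelled Siah2-/- than in WT. UMIs were summed over the cells of a class and divided by the class total. H2-K1 had 1077 CPM (10437 UMIs) in WT and 2257 CPM (3132 UMIs) in the library labelled Siah2-/-, a log2 ratio of 1.07 (1.01 to 1.13). H2-D1 had 2016 and 4289 CPM, a log2 ratio of 1.09 (1.05 to 1.13). B2m had 5650 and 11000 CPM, a log2 ratio of 0.96 (0.94 to 0.99). The 3 chains of the class I complex thus stood apart between the libraries by close to the same amount.

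Genes for peptide transport and loading showed the same direction in Hmga2-high cells. Tap1 had 100.2 CPM in WT and 212 CPM in the library labelled Siah2-/- (log2 ratio 1.08, 0.89 to 1.27). Tap2 had 58.8 and 115 CPM (log2 ratio 0.96, 0.70 to 1.22). Tapbp, which bridges TAP and the empty heavy chain, had 288 and 535 CPM (log2 ratio 0.89, 0.77 to 1.01). The transporter subunits and tapasin were each higher in the library labelled Siah2-/-, with intervals that overlapped each other. Among the immune proteasome subunits, which replace the constitutive ones and change the peptides that are cut, Psmb8 had 335 and 662 CPM (log2 ratio 0.98, 0.88 to 1.09). Psmb9 had 170 and 308 CPM (log2 ratio 0.86, 0.70 to 1.01), and Psmb10 had 233 and 362 CPM (log2 ratio 0.63, 0.49 to 0.77), the smallest ratio of the 10. Nlrc5 was scarce, with 100 UMIs in WT and 35 UMIs in the library labelled Siah2-/-, and its log2 ratio of 1.29 (0.69 to 1.86) was the least precise.

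All 10 members had a log2 ratio of at least 0.5 in Hmga2-high cells, against 21.7% of the 10802 genes with at least 20 UMIs in that class. A log2 ratio of -0.5 or lower was found for 18.1% of these genes. Among the 5615 genes with at least 200 UMIs the share at or above 0.5 was 13.7%. The count of members fell to 8 of 10 without cycling cells (14.8% of all genes in those cells), where Tapbp had 0.47 (0.30 to 0.63) and Psmb10 0.40 (0.21 to 0.59), and to 9 of 10 in cells with under 20 UMIs of interferon-induced genes per 10000 (23.9% of all genes), where Psmb10 had 0.36 (0.15 to 0.57). The median log2 ratio of the members was 0.97, beside 0.03 over all genes with at least 20 UMIs. The 54 cells labelled Siah2-/- hold far fewer UMIs than the 315 WT cells, and nothing here measures how tumors of 1 genotype vary.

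Dcn-high cells went the same way with smaller ratios for some members. There 8 of 10 members reached a log2 ratio of 0.5, against 12.6% of 8737 genes (13.7% were at -0.5 or lower), and the median of the members was 0.84, beside -0.02 over all genes. Without cycling cells (94 and 17 cells left) the median was 0.49, with 5 of 10 members at 0.5 or more, against 15.03% of all genes in those cells. Other measures of the Dcn-high cells moved as well, in WT and then in the library labelled Siah2-/-. Leukocyte transcripts had medians of 1.99 and 4.67 per 10000 UMIs, cycling cells made up 25.4% and 46.9%, and cells high in interferon-induced genes 31.0% and 43.8%. The median log2 ratio of the members was 0.59 in Dcn-high cells low in these genes (87 and 18) and 0.69 in those high in them (39 and 14). The part of these measures in the ratios was not tested beyond that. H2-K1 had 1189 CPM in WT and 2114 CPM in the library labelled Siah2-/- (log2 ratio 0.83, 0.74 to 0.92). H2-D1 had 2787 and 4720 CPM (log2 ratio 0.76, 0.70 to 0.82), and B2m had 8357 and 11521 CPM (log2 ratio 0.46, 0.43 to 0.50). The intervals of these 3 genes lay below those of the Hmga2-high cells. Tap1, Tap2, Psmb8 and Psmb9 had log2 ratios from 0.91 to 0.96 and Tapbp 0.51, while Psmb10 had 0.26 (0.03 to 0.49). Nlrc5 rested on 26 and 15 UMIs, with a log2 ratio of 0.85 (-0.17 to 1.82).

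**Figure D1:**
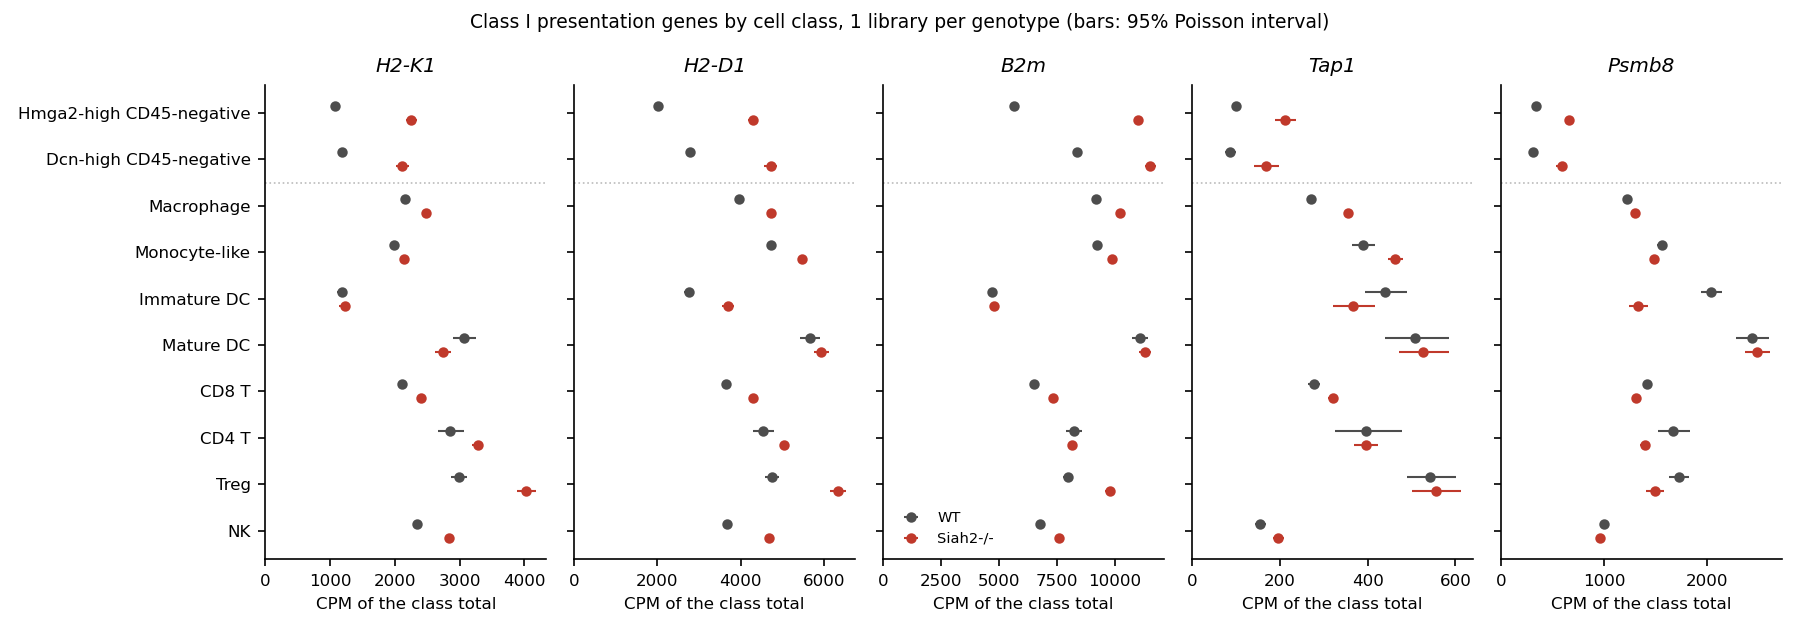
Levels of 5 of the 10 genes in CPM of the class total (horizontal axes, linear, from 0) in 10 cell classes, with WT in grey and the library labelled Siah2-/- in red. Each point is 1 library, bars are 95% Poisson intervals, and the dotted line divides the 2 CD45-negative classes from the 8 immune classes. H2-K1 in Hmga2-high cells sits at 1077 CPM in WT and 2257 CPM in the library labelled Siah2-/-, and the 8 immune classes lie between 1187 and 4030 CPM.

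In immune classes the ratios were smaller, though the difference between classes was not tested. Their 8 medians over the members ran from a log2 ratio of -0.04 in immature DC to 0.22 in Treg cells. Of the 80 values of members in immune classes, 35 had an interval above 0, 13 an interval below 0 and 32 an interval that spans 0. Over all genes of a class, 6.02% (CD4 T) to 17.3% (macrophages) had an interval above 0 and 8.05% (mature DC) to 23.8% (macrophages) an interval below 0. A log2 ratio of at least 0.5 in size was reached by 6, of which 2 were higher and 4 lower. The 2 higher values were both Nlrc5, on 7 and 13 UMIs in immature DC (1.05, -0.38 to 2.62) and on 3 and 60 UMIs in CD4 T cells (1.43, -0.19 to 3.75), and in these classes 20% and 22.7% of all genes had a log2 ratio of at least 0.5. The 4 lower values were Tap2, Psmb8 and Psmb9 in immature DC and Nlrc5 in mature DC (-0.67, -1.74 to 0.41). Log2 ratios of at least 0.5 were found for 13.6% of all genes in monocyte-like cells and 22% in mature DC, and ratios of -0.5 or lower for 10.1% in monocyte-like cells, 14% in mature DC and 20.9% in CD4 T cells.

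Macrophages, the class with the most UMIs, had all 10 intervals above 0, against 17.3% of all genes in that class. None of the 10 log2 ratios reached 0.5, a size that 11.2% of 11480 genes reached upward and 9.5% downward. H2-D1 had 3968 CPM in WT and 4732 CPM in the library labelled Siah2-/- (log2 ratio 0.25, 0.24 to 0.27). Tap1 had 270 and 356 CPM (0.40, 0.35 to 0.45), and Psmb8 had 1219 and 1301 CPM (0.09, 0.07 to 0.12). Resident-like macrophages with Folr2, Fcrls and Ccl8 (173 and 41 cells) had 0.43 for both heavy chains. In Mgl2-positive macrophages (176 and 114 cells) H2-K1 had 0.32 and H2-D1 0.39. Psmb8 in the Mgl2-positive cells spanned 0 (0.08, -0.0038 to 0.15).

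In CD8 T cells the class I complex was higher in the library labelled Siah2-/- while Psmb8 and Psmb9 were lower, and in Treg cells Psmb8 was lower. CD8 T cells had a higher level in the library labelled Siah2-/- for H2-K1 (2106 and 2397 CPM, log2 ratio 0.19, 0.15 to 0.22), for H2-D1 (3639 and 4309 CPM, 0.24, 0.22 to 0.27) and for B2m (6494 and 7334 CPM, 0.18, 0.16 to 0.19). Psmb8 was lower there (1418 and 1307 CPM, -0.12, -0.16 to -0.08), and so was Psmb9 (534 and 479 CPM, -0.16, -0.23 to -0.09), while the interval of Psmb10 spans 0 (-0.06, -0.15 to 0.02). Treg cells had the largest H2-K1 ratio of the immune classes, at 2988 and 4030 CPM (0.43, 0.35 to 0.51), with H2-D1 at 4750 and 6338 CPM (0.42, 0.35 to 0.48), while Psmb8 was lower (-0.21, -0.33 to -0.09). The intervals of Psmb9 (-0.08, -0.28 to 0.11) and Psmb10 (-0.17, -0.42 to 0.09) in Treg cells span 0. NK cells had 0.28 for H2-K1 (0.24 to 0.31), 0.35 for H2-D1 (0.32 to 0.38) and -0.05 for Psmb8 (-0.11 to 0.01). The share of cycling cells moved with these values, from 51.4% to 23.7% in CD8 T cells and from 59.4% to 15.9% in Treg cells, and its part in them was not tested beyond leaving cycling cells out. Over all genes, the share with a log2 ratio of at least 0.5 was 11.8% in CD8 T, 19.5% in Treg and 15.5% in NK cells, the share at -0.5 or lower was 11.8%, 20.2% and 7.11%, and none of the 10 members reached it in these 3 classes.

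Immature DC, which take up and process antigen, had 3 members lower by at least 0.5. Psmb8 had 2040 CPM in WT and 1331 CPM in the library labelled Siah2-/- (log2 ratio -0.62, -0.74 to -0.50). Psmb9 had 849 and 515 CPM (-0.72, -0.92 to -0.53), and Tap2 had 257 and 180 CPM (-0.52, -0.86 to -0.18). In the same cells H2-D1 was higher, at 2761 and 3696 CPM (0.42, 0.34 to 0.51), and B2m hardly differed, at 4698 and 4785 CPM (0.03, -0.04 to 0.10). A log2 ratio of -0.5 or lower was found for 17.9% of 5605 genes in this small class. Cycling cells made up 24.1% of its 58 WT cells and 2.99% of its 67 cells labelled Siah2-/-. In CD4 T cells, with 29 in WT, the 3 immune proteasome subunits had intervals below 0 (Psmb8 -0.26, -0.40 to -0.11, Psmb9 -0.30, -0.55 to -0.04, and Psmb10 -0.35, -0.65 to -0.04), while H2-K1 (0.20, 0.09 to 0.30) and H2-D1 (0.16, 0.07 to 0.24) had intervals above 0. Of these, Psmb10 changed sign with stricter gates (0.0059), H2-D1 without cycling cells (-0.021) and H2-K1 on a housekeeping scale (-0.021). Monocyte-like cells had Psmb8 (-0.07, -0.13 to -0.02) and Psmb10 (-0.12, -0.22 to -0.02) below 0, and H2-K1, H2-D1, B2m and Tap1 above 0 by 0.10 to 0.25. There Psmb8 changed sign in cells low in interferon-induced genes (0.0086), and B2m on a housekeeping scale (-0.0044).

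**Figure D2:**
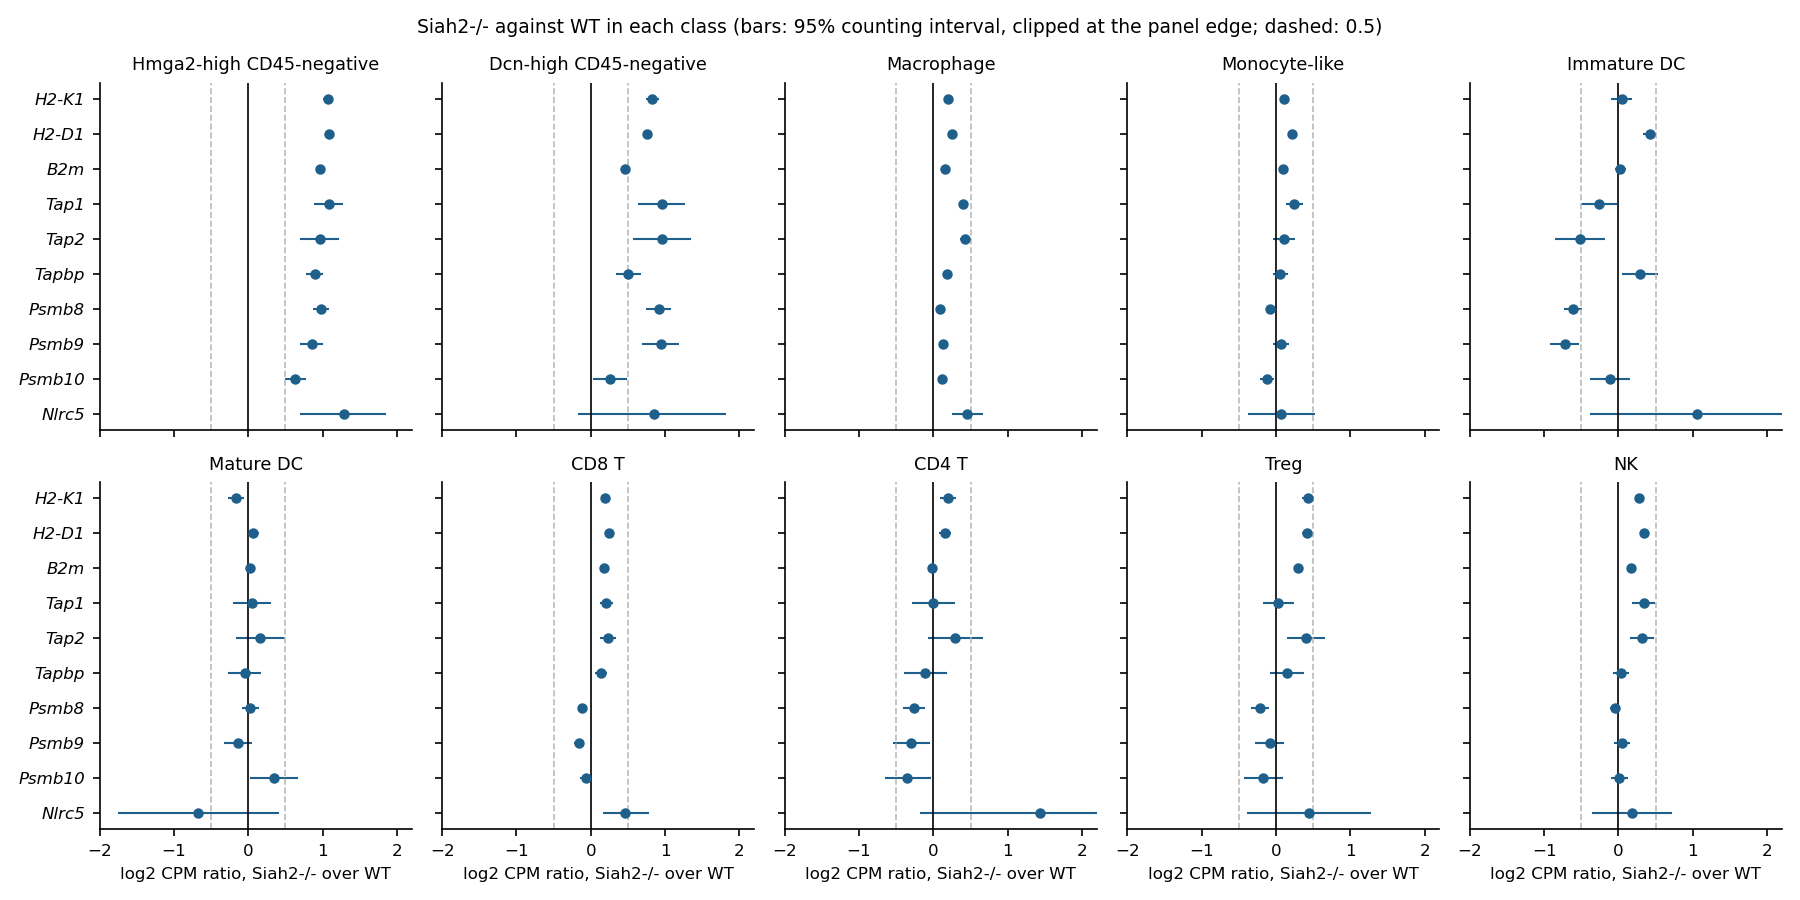
log2 ratio of CPM, the library labelled Siah2-/- over WT (horizontal axes), for the 10 genes in each of 10 cell classes, 1 library per genotype. Points are ratios of summed UMIs, bars are 95% counting intervals clipped at the panel edge, and dashed lines mark -0.5 and 0.5. All 10 points lie beyond 0.5 in Hmga2-high cells, 8 do in Dcn-high cells, and none do in macrophages.

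The order of the classes followed from these levels. In WT, 1 of the 2 CD45-negative classes was the lowest of the 10 classes for 8 of 10 members (B2m and Nlrc5 were lowest in immature DC), and an immune class was the highest for all 10. Over all immune classes together against all CD45-negative cells, the log2 ratio in WT was 1.89 for Psmb8 (1.86 to 1.93), 1.49 for Tap1 (1.42 to 1.56), 1.36 for Psmb9 (1.31 to 1.41) and 0.89 for H2-K1 (0.87 to 0.92). It was smallest for Tapbp (0.22) and B2m (0.31). In the library labelled Siah2-/- the log2 ratio was smaller for every member. There it was 1.10 for Psmb8 (1.03 to 1.16), 0.98 for Tap1 (0.86 to 1.09), 0.69 for Psmb9 (0.60 to 0.78) and 0.21 for H2-K1 (0.18 to 0.25), and for B2m it changed sign, to -0.31 (-0.33 to -0.30). Tapbp changed sign as well, to -0.27 (-0.34 to -0.20).

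Psmb8 gave an order of classes in which 5 of 9 neighbours had ranges, from the lower to the higher library, that did not overlap. Dcn-high (312 and 587 CPM) and Hmga2-high cells (335 and 662 CPM) were lowest, with ranges that overlapped. NK cells (995 and 961 CPM), macrophages (1219 and 1301 CPM) and CD8 T cells (1418 and 1307 CPM) followed. Their ranges did not overlap, but macrophages and CD8 T cells nearly met, and in the library labelled Siah2-/- the counting intervals of these neighbours overlapped (1283 to 1318 and 1283 to 1331 CPM). Monocyte-like cells, CD4 T cells, Treg cells and immature DC could not be ordered, and the range of CD8 T cells also overlapped those of CD4 T cells and immature DC. Mature DC, which migrate and present antigen to T cells, were highest (2439 and 2486 CPM) and apart from the rest. H2-K1 gave no such order, as the ranges overlapped in all of its 9 pairs of neighbours. Its lowest class in WT was Hmga2-high (1077 CPM), and its lowest class in the library labelled Siah2-/- was immature DC (1225 CPM). B2m was lowest in immature DC in both libraries (4698 and 4785 CPM).

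The balance between transcripts of immune and constitutive proteasome subunits can be read from pairs that take the same place in the particle. Such a share counts RNA, not assembled subunits, and it also rises where the constitutive gene falls. The part of cycling cells in the shares was not tested. Psmb8 replaces Psmb5, Psmb9 replaces Psmb6 and Psmb10 replaces Psmb7. Psmb8 made up 54.6% (53.3 to 55.9, Clopper-Pearson) of the UMIs of its pair in WT Hmga2-high cells and 76.6% (74.1 to 79.0) in those labelled Siah2-/-. The share of Psmb9 was 29.3% and 50.8%, and that of Psmb10 was 44.5% and 65.8%. In Hmga2-high cells the constitutive genes were lower, with log2 ratios of -0.47 for Psmb5 (-0.65 to -0.29), -0.46 for Psmb6 (-0.61 to -0.31) and -0.63 for Psmb7 (-0.82 to -0.44). In Dcn-high cells Psmb6 was lower (-0.26, -0.47 to -0.05), and the intervals of Psmb5 (-0.20, -0.46 to 0.04) and Psmb7 (-0.06, -0.32 to 0.20) span 0. There the share was 56.5% and 73.8% for Psmb8, 29.8% and 49.4% for Psmb9, and 52.6% and 58.0% for Psmb10, whose intervals overlapped.

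**Figure D3:**
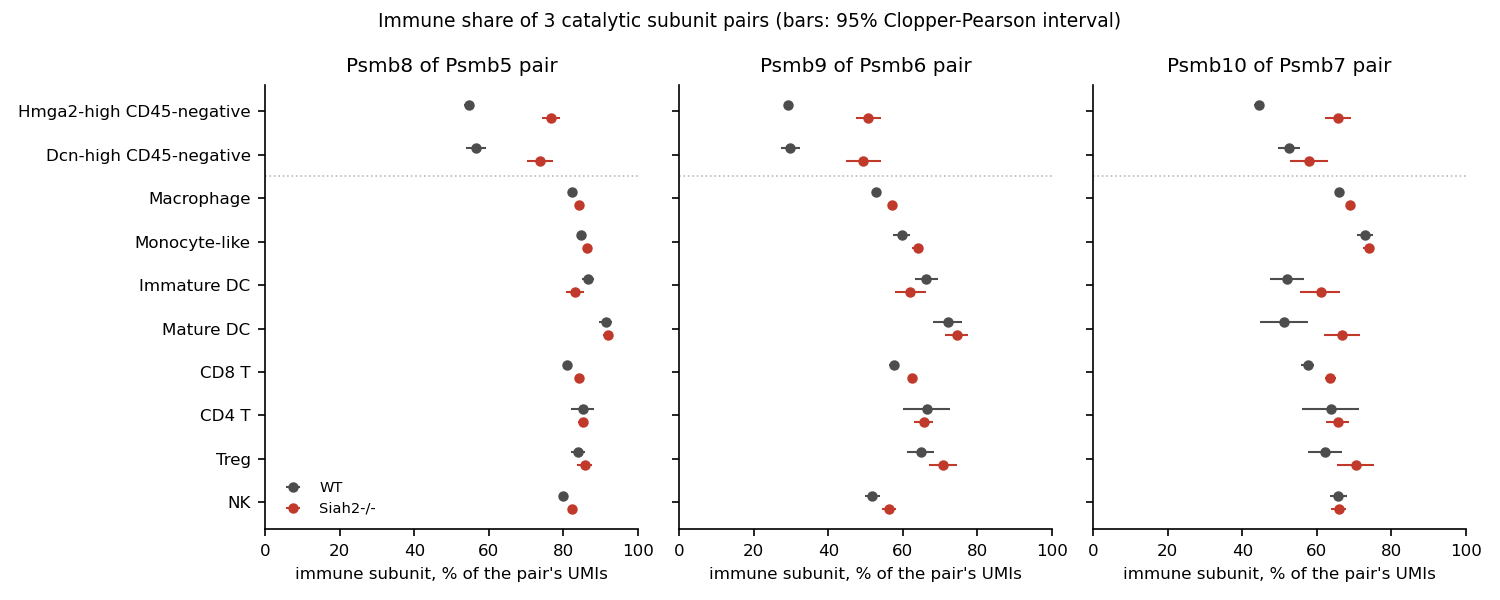
Share of the immune subunit in the UMIs of its pair (horizontal axes, in percent from 0 to 100) for Psmb8 with Psmb5, Psmb9 with Psmb6 and Psmb10 with Psmb7 in 10 classes, with WT in grey and the library labelled Siah2-/- in red. Bars are 95% Clopper-Pearson intervals. The Psmb8 share in Hmga2-high cells goes from 54.6% to 76.6% while all 8 immune classes lie between 80.0% and 92.0% in both libraries.

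In the 8 immune classes the Psmb8 share lay between 80.0% and 91.4% in WT and between 82.2% and 92.0% in the library labelled Siah2-/-, so that the CD45-negative cells labelled Siah2-/- came closer to these shares without reaching them. For Psmb9 the immune classes held 51.8% to 72.1% in the WT library and 56.3% to 74.5% in the other. For Psmb10 they held 51.2% to 72.9% in the WT library and 61.0% to 73.9% in the other, so that the 65.8% of Hmga2-high cells labelled Siah2-/- lay within their range. The Psmb10 share was higher in the library labelled Siah2-/- in 8 of 8 immune classes, and the shares of Psmb8 and Psmb9 in 6 of 8, but the intervals of the 2 libraries stood apart in only 3 classes for Psmb10, 3 for Psmb8 and 4 for Psmb9. In NK cells, for example, the Psmb10 share was 65.8% and 65.9%. In CD8 T cells, where Psmb8 and Psmb9 themselves were lower, their shares were higher (81.0% and 84.3% for Psmb8, 57.7% and 62.5% for Psmb9), as Psmb5 and Psmb6 had log2 ratios of -0.44 and -0.45. Over the 8 immune classes the median log2 ratio of the constitutive genes ran from -0.48 to -0.11. In immature DC the share was lower for Psmb8 (86.7% and 83.2%) and Psmb9 (66.3% and 62.0%) but higher for Psmb10 (52.1% and 61.0%), each with overlapping intervals. In CD4 T cells Psmb8 (85.3% in both libraries) and Psmb9 (66.5% and 65.6%) were the other shares that were not higher.

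Differences between Hmga2-high cells of the 2 libraries were spread over the cells rather than held by a few. The median cell had 9.20 UMIs of H2-K1 per 10000 in WT against 21.0 in the library labelled Siah2-/-, and 53 of the 54 cells labelled Siah2-/- lay above the WT median. For B2m the medians were 56.3 and 107 per 10000, with 54 of 54 cells above the WT median. For H2-D1 the count was 51 of 54, and for Psmb8 44 of 54. As a ratio, the libraries parted most at their low ends. The 10th percentile of H2-K1 was 1.08 per 10000 in WT against 13.5 in the library labelled Siah2-/-, while the 90th percentiles were 24.5 and 35.7. For B2m the 10th percentiles were 19.6 and 66.0 per 10000 and the 90th percentiles 107.0 and 154 per 10000, which on the linear scale are gaps of about the same size. For H2-K1, 212 of 315 WT cells (67.3%) lay under the 10th percentile of the cells labelled Siah2-/-, and 139 lay under the lowest of those cells. Both cuts rest on only 54 cells. For B2m, 188 of 315 (59.7%) lay under that percentile and 164 under the lowest cell, and for H2-D1 these counts were 196 and 104. Dcn-high cells showed the same low end for H2-K1, with 70 of 126 WT cells (55.6%) under the 10th percentile of the 32 cells labelled Siah2-/-.

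**Figure D4:**
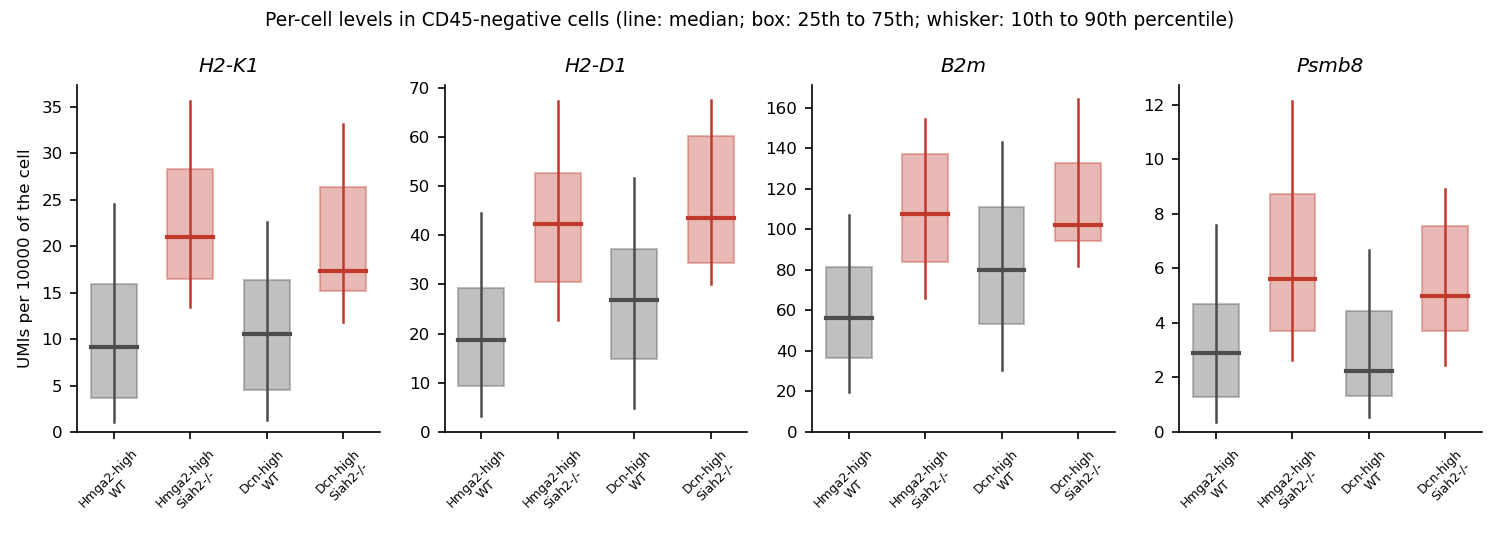
UMIs per 10000 UMIs of the cell (vertical axes, linear, from 0) for 4 genes in Hmga2-high and Dcn-high CD45-negative cells of the WT library (grey) and the library labelled Siah2-/- (red). Lines are medians over cells, boxes run from the 25th to the 75th percentile and whiskers from the 10th to the 90th. The 10th percentile of H2-K1 in Hmga2-high cells is 1.08 (WT) against 13.5 (labelled Siah2-/-).

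Within 1 library the members also varied together from cell to cell. In 315 WT Hmga2-high cells the 45 pairs of members had Spearman correlations from 0.22 to 0.92 with a median of 0.46, and the highest was that of H2-K1 with H2-D1. In macrophages, with 1652 WT cells, the median was 0.22. These WT macrophages had a median of 10681.5 UMIs per cell against 29857 in WT Hmga2-high cells, and the part of depth was not tested. All points share their library, and cells of different depth and state enter together, so these values are descriptions. Over the 20 sums of class and library, Psmb8 with Psmb9 (Pearson 0.97) and Tap1 with Tap2 (0.96) were most alike among the members, and B2m with Psmb8 least (0.08). Among 2631 genes with a mean of at least 50 CPM, the non-members most like the mean of the members included Arl5c (0.89), H2-T23 (0.87), Samsn1, Rnf114, Tnfrsf1b, Plekhb2, Cmip, Mxd1 and H2-M3 (0.83). H2-T23 and H2-M3 are class I-like molecules.

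Several measures of the Hmga2-high cells moved with the member ratios, and the cells were divided by the interferon list, cycling, the fibroblast list, Hmga2 and the leukocyte list. Interferon-induced genes (Isg15, Ifit1, Ifit2, Ifit3, Rsad2 and Cxcl10) had a median of 4.70 UMIs per 10000 in WT against 13.8 in the library labelled Siah2-/-, and cells with at least 20 were called interferon-high (22.9% and 37.0%). The cut divides a continuous range, and 6.67% and 9.26% of the cells lay between 15 and 25 per 10000. Among interferon-low cells (243 and 34) the median log2 ratio of the members was 0.90, with all 10 intervals above 0 (14.7% of all genes in these cells), and H2-K1 had 1050 and 2171 CPM. Among interferon-high cells (72 and 20) the median was 0.77, with 9 of 10 intervals above 0 (9.24% of all genes). The members were therefore higher in the library labelled Siah2-/- on either side of the cut. Within WT, interferon-high cells stood above interferon-low cells by a log2 ratio of 1.27 for Tap1 (1.08 to 1.46), 1.02 for Psmb10 (0.89 to 1.14) and 0.87 for Psmb8 (0.76 to 0.97), but by 0.16 for H2-K1 (0.10 to 0.23) and 0.03 for H2-D1 (-0.02 to 0.08).

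Cycling cells made up 60.6% of the WT and 37.0% of the Siah2-/--labelled Hmga2-high cells. The median log2 ratio was 1.02 among cycling cells (191 and 20) and 0.77 among the others (124 and 34). The fibroblast list stood at a median of 20.2 per 10000 in WT against 32.5 in the library labelled Siah2-/-. Among cells under the WT median of this list (157 and 8) the median log2 ratio of the members was 1.05, with 8 of 10 intervals above 0 (7.95% of all genes), and Psmb10 had 0.02 (-0.45 to 0.46). Among cells at or over it (158 and 46) the median was 0.71 and all 10 intervals lay above 0 (9.98% of all genes). Among cells with at least 10 Hmga2 UMIs (139 and 9) the median was 1.51. Over all CD45-negative cells together (738 and 137), those between the gates included, it was 0.80, with all 10 intervals above 0 (17.5% of all genes). In the cells between the 2 gates alone (297 and 51) it was 0.54, with 6 of 10 members at 0.5 or more (12.8% of all genes) and 9 of 10 intervals above 0 (9.12% of all genes), and Psmb10 had -0.04 (-0.21 to 0.12). Leukocyte transcripts in Hmga2-high cells had a median of 1.85 per 10000 in WT against 5.22 in the library labelled Siah2-/-. At or over the WT median of this list (158 and 53 cells) the median log2 ratio of the members was 0.94, with all 10 intervals above 0 (15.3% of all genes). Under it there were 157 WT cells but 1 cell labelled Siah2-/-, so that low levels of leukocyte transcripts could not be compared. Free RNA in the droplets, judged by T cell and C1q genes that these cells should lack, was estimated at no more than 1.18% and 3.69% of their UMIs. At that share it would hold 1.96% and 3.95% of their H2-K1 UMIs. The part of cell state and of leukocyte and fibroblast transcripts in the ratios was not tested beyond these splits.

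**Figure D5:**
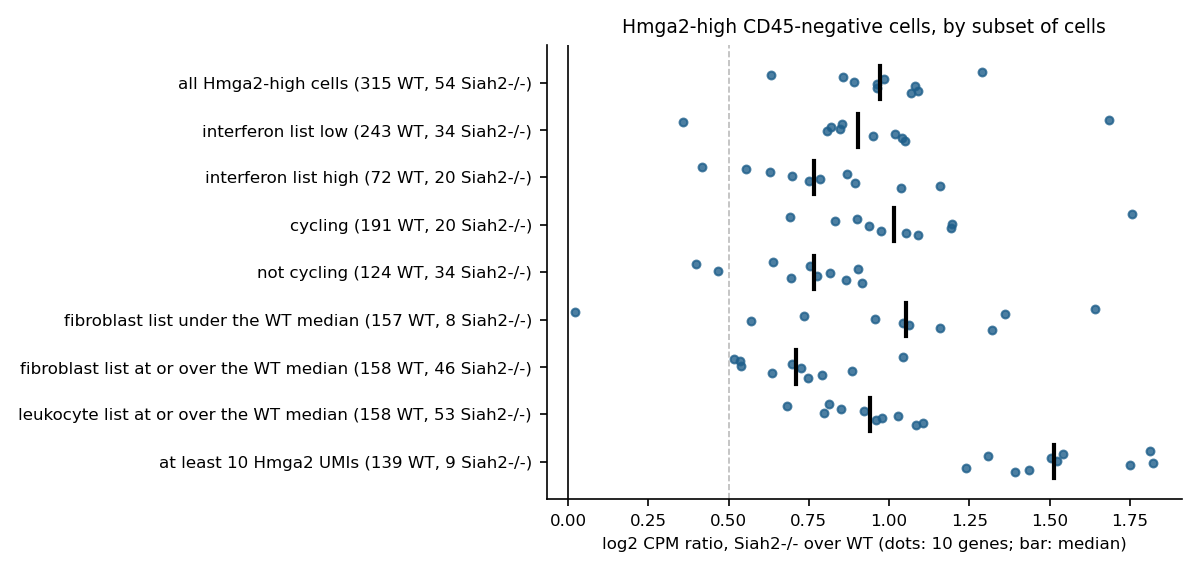
log2 ratio of CPM, the library labelled Siah2-/- over WT (horizontal axis), of the 10 genes in subsets of the Hmga2-high CD45-negative cells, with cell numbers beside each subset. Dots are genes, black bars are medians over the 10 genes, and the dashed line marks 0.5. The 1 cell labelled Siah2-/- under the WT median of the leukocyte list is not drawn. Medians run from 0.71 in cells at or over the WT median of the fibroblast list to 1.51 in cells with at least 10 Hmga2 UMIs.

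Other genes of the pathway were taken from lists that were chosen with earlier results of these data known. Of 12 class I-like and further heavy chain genes in the table, 7 had at least 20 UMIs in Hmga2-high cells. All 7 of these were higher by a log2 ratio of at least 0.5 in the library labelled Siah2-/- (21.7% of all genes in that class), with a median of 1.25. H2-T23, the mouse Qa-1 molecule that engages the NKG2A receptor of NK cells, had 50.7 and 174 CPM (1.78, 1.56 to 2.01). H2-M3, which presents formylated peptides, had 30.1 and 89.4 CPM (1.57, 1.25 to 1.88), and H2-Q4 had 165 and 391 CPM (1.25, 1.11 to 1.39). Near-identical H2-Q genes may share reads, and their separate values are uncertain. Of 5 loading and trimming genes, Tapbpl (0.96, 0.61 to 1.30) and the peptidase Erap1 (0.59, 0.09 to 1.05) passed 0.5, against 21.7% of all genes. The chaperones Calr (0.03) and Canx (0.04) hardly differed and had intervals that span 0.

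Proteasome core genes outside the catalytic pairs did not share this direction in Hmga2-high cells. Of 11 core genes, 0 had a log2 ratio of at least 0.5 (21.7% of all genes in that class) and 9 had an interval below 0 (15.2% of all genes). Their median was -0.31, so that the immune subunits stood out from the rest of the particle. Psme1, part of the activator that interferon γ induces, was higher (0.71, 0.58 to 0.84), Psme2 had 0.40 (0.30 to 0.51), and Psme3 had -0.29 (-0.81 to 0.19). The assembly factor Pomp was lower, at -0.38 (-0.52 to -0.23). Among 9 regulators, 8 had at least 20 UMIs. Of these 8, against 21.7% of all genes, 3 passed 0.5. They included Irf1 with 73.8 and 112 CPM (0.60, 0.34 to 0.85) and Irf2 (0.65, 0.27 to 1.01). Rfx5, Rfxap, Rfxank, Nfkb1 and Rela all had intervals that span 0. Of 5 interferon γ signalling genes, the kinase gene Jak2 (1.19, 0.54 to 1.80) and the feedback inhibitor Socs1 (0.58, 0.22 to 0.92) passed 0.5, against 21.7% of all genes. The receptor subunits had 0.44 for Ifngr1 (0.11 to 0.76) and -0.05 for Ifngr2 (-0.38 to 0.28).

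Class II genes, which present outside antigens to CD4 T cells, were also higher in Hmga2-high cells, 4 of 4 by at least 0.5 (21.7% of all genes in that class). Their median was 1.38, but their levels were low and free RNA could make up much of them. Cd74 had 156 CPM in WT and 467 CPM in the library labelled Siah2-/-, of which free RNA at the estimated share would be 53.2% and 76.1%. For H2-Ab1 those shares were 39.0% and 66.3%. Ciita, the class II transactivator related to Nlrc5, had 1 UMI in WT and 0 UMIs in the library labelled Siah2-/-. The members are unlike the class II genes in this respect, since the estimate for B2m in these cells was 1.62% and 2.79%.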

How the data were processed

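Sorted live cells of YUMMER1.7 tumors from WT and Siah2-/- hosts were profiled by 10x Genomics 3′ v2 chemistry, with 1 library each. The authors deposited a count table of UMIs per gene and cell, made with Cell Ranger on mm10 (GRCm38), and unfiltered count matrices per library. Versions of Cell Ranger and bcl2fastq are not given in the sources used here. They also deposited natural log normalized values, of which only the cell names were used here, to choose the 4512 WT and 5563 Siah2-/--labelled cells. Deposited columns of other samples numbered 0.

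The 10 genes, the lists and the markers were chosen with earlier results of these data known, and gate thresholds were set on marker distributions after the data were seen. Any gene of the design's lists was open to be reported, but of 15 listed class I-like and further heavy chain genes 12 were in the count table. The Ifng, macrophage-subset and marker values were chosen outside these lists. A CD45-negative cell was Hmga2-high with at least 3 Hmga2 UMIs and at most 10 UMIs of Dcn, Lum and Pdgfra together, and Dcn-high with at most 1 Hmga2 UMI and at least 6 of those UMIs. The gated classes held 75.2% of WT cells and 75.0% of cells labelled Siah2-/-. Barcodes with T cell and macrophage markers together (309 and 307) or with leukocyte and fibroblast markers together (72 and 13) were left out as possible doublets, and no doublet caller was run.

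UMIs were summed per class and library with Python 3.11.15, NumPy 2.4.6, pandas 2.3.3 and SciPy 1.17.1, and divided by the class total (CPM). Intervals at 95% were exact Poisson for CPM, conditional binomial for log2 ratios and Clopper-Pearson for shares, and they cover counting error only. With 1 library per genotype there was no test and no p-value. A gene counted as higher or lower at a log2 ratio of 0.5 in size with at least 20 UMIs over both libraries. Likeness between genes was Pearson's r of log2 CPM over the 20 sums of class and library. Free RNA was taken from barcodes with 10 to 100 UMIs. The ratio step was checked on simulated data. Alternatives were other scales, gates, clusters (scanpy 1.11.5) and subsets of cells. Some genes and subsets are not reported here.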

Additional observations from a re-analysis of the deposited data

Results flagged for a closer look

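For 6 of the 10 genes, some classes had a ratio of the library labelled Siah2-/- over WT with an interval above 0 and others an interval below 0. The difference between classes was not tested, as each class has 1 library per genotype. In Hmga2-high cells the log2 ratio of H2-K1 was 1.07, and in mature DC it was -0.16. Tap1 had 1.08 in Hmga2-high cells and -0.26 in immature DC, and Tap2 had 0.96 and -0.52 in the same classes. Psmb8, the immune proteasome subunit, had 0.98 in Hmga2-high cells and -0.62 in immature DC, and over the 10 classes its interval lay above 0 in 3 and below 0 in 5. Psmb9 had 0.94 in Dcn-high cells and -0.72 in immature DC. Psmb10 had 0.63 in Hmga2-high cells and -0.35 in CD4 T cells, on 104 and 605 UMIs. The CD4 T value rests on 29 WT cells and changed sign with stricter gates (0.0059).

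Immature DC thus hold 4 of these 6 lowest values. This class has 58 WT cells and 67 cells labelled Siah2-/-, and its cycling share was 24.1% and 2.99%.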

How the results depend on the processing

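No paired analysis was possible because each genotype has 1 library, and no replicate could be left out for the same reason. In Hmga2-high cells the median log2 ratio of the members stayed between 0.77 and 1.00 over 12 settings. The lowest, 0.77, came without cycling cells. In Dcn-high cells it ran from 0.49 to 0.89 over 11 settings, with the lowest, 0.49, also without cycling cells (94 and 17 cells). The settings with a log2 ratio of 1 and with no minimum of UMIs are counted in both classes, but they cannot change these medians. At a log2 ratio of 1 in place of 0.5, 4 of 10 members counted as higher in Hmga2-high cells (7.36% of all genes) and 0 in Dcn-high cells (2.92% of all genes). At 0.5, without cycling cells, 5 of 10 did in Dcn-high cells (15.03% of all genes) and 8 of 10 in Hmga2-high cells (14.8% of all genes). Splits added after the data were seen gave a median of 0.71 at or over the WT median of the fibroblast list and 1.51 with at least 10 Hmga2 UMIs. Under the WT median of the leukocyte list it was 0.36, on 1 cell labelled Siah2-/-. With clusters in place of gates, 7 of the 10 classes could be compared. In Hmga2-high cells the Siah2-/--labelled share of Psmb8 in its pair was then 73.7% and that of Psmb10 58.8%. In immune classes, medians moved by more than their counting error as follows. The CD8 T median was 0.14 with 1 lowest UMI count for both libraries, 0.25 with a median ratio over genes as the scale and 0.15 without cycling cells. The macrophage median was 0.23 with that scale, 0.14 without cycling cells, 0.25 in interferon-low cells and 0.097 on a housekeeping scale. Monocyte-like cells had 0.15 with the median-ratio scale and changed sign on the housekeeping scale (-0.017), as did B2m there (-0.0044), while their Psmb8 changed sign in interferon-low cells (0.0086). Immature DC had -0.24 with stricter gates and -0.27 in interferon-low cells. The CD4 T median, which rests on 29 WT cells, was 0.30 with stricter gates and -0.23 on the housekeeping scale. In these cells Psmb10 changed sign with stricter gates (0.0059), H2-D1 without cycling cells (-0.021) and on the housekeeping scale (-0.063), and H2-K1 on that scale (-0.021). The cause of these changes was not tested. Depth limits Nlrc5 most, as its UMIs per class and library fell to 3.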

Other observations

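Some class I-like molecules were also higher in the library labelled Siah2-/- outside the Hmga2-high cells, though the median over the class I-like list ran from -0.31 in immature DC to 0.63 in NK cells over the 8 immune classes. H2-T23, the Qa-1 molecule, had 255 CPM in WT macrophages and 354 CPM in those labelled Siah2-/- (log2 ratio 0.47, 0.42 to 0.53), while H2-M3 (0.02, -0.07 to 0.11) and H2-T24 (-0.08, -0.40 to 0.25) had intervals that span 0. In CD8 T cells H2-T23 had 170 and 227 CPM (0.42, 0.30 to 0.53), in Treg cells 287 and 402 CPM (0.49, 0.22 to 0.75) and in NK cells 152 and 206 CPM (0.44, 0.29 to 0.59). NK cells had more H2-Q7, at 482 and 763 CPM (0.66, 0.58 to 0.75). In Dcn-high cells, 5 of 7 class I-like genes and 2 of 8 regulators had a log2 ratio of at least 0.5, against 12.6% of all genes in that class, while none of the 11 proteasome core genes or 5 interferon γ signalling genes did. Of these regulators, Rfx5 rested on 16 and 8 UMIs (0.65, -0.79 to 1.95), and the class I-like genes Mr1 (-0.39, -1.55 to 0.63) and H2-Q6 (-0.01, -1.48 to 1.27) had intervals that span 0.

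Ifng, the gene for interferon γ, was looked up after its values were seen and is in none of the lists. In CD8 T cells it had 475 CPM in WT and 528 CPM in those labelled Siah2-/-, in CD4 T cells 235 and 700 CPM (65 and 1439 UMIs), in NK cells 83.4 and 148 CPM, and in Treg cells 5.69 and 78.7 CPM (4 and 55 UMIs). Barcodes with 10 to 100 UMIs, which hold free RNA, had 86.5 and 190 CPM of Ifng. Whether these levels bear on the member ratios was not tested.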
